A study of Mus musculus with 40 samples.

Results

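The genes described here are 10 members of the Wnt signalling pathway: the ligands Wnt5a and Wnt10b, the receptor Fzd1, the secreted inhibitors Sfrp2 and Dkk2, the feedback inhibitor Axin2, and Ctnnb1, Tcf7l1, Tcf7l2 and Lef1, which carry the signal to DNA. They were chosen by name, and each was taken from 5 kb upstream of its start to its end in the mouse genome build mm10. The genome holds 21938 protein-coding genes in the annotation used. Of these, 15204 had a peak of H3K27ac in at least 3 of the 24 libraries and were tested, and 9 of the 10 members were among them. Lef1, which encodes a DNA-binding partner of beta-catenin, held 0 peaks in every library and was not tested.

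Wnt ligands bind Frizzled receptors at the cell surface. In the canonical branch this spares beta-catenin, the product of Ctnnb1, from destruction by a complex built on axin, and beta-catenin then acts in the nucleus with TCF and LEF proteins. In fat, canonical signalling is known to hold preadipocytes back from differentiation, and Wnt10b is the ligand most often named for it. Wnt5a signals largely without beta-catenin. H3K27ac is a histone acetylation mark of active promoters and enhancers.

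H3K27ac was measured by ChIP-seq in cultured white preadipocytes of C57BL/6 mice, taken from inguinal fat, and during their differentiation into brown-like adipocytes. The mice were wild type (WT) or Hmgn1-/- and Hmgn2-/- (double knockout, DKO). HMGN1 and HMGN2 are nucleosome-binding proteins, and both genes are deleted in the whole animal. The mice were 8 to 12 weeks old by the study's methods. From day 0 on, the cells of both genotypes received insulin, dexamethasone, IBMX, T3 and rosiglitazone for 4 days and then insulin and T3, so that day 3 cells had seen the first medium alone. Each of the 8 groups had 3 libraries. The study calls them biological replicates but the labels do not tie them to separate animals, so p-values measure the spread between libraries, which may be technical.

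Some libraries stand apart. DKO day 0 replicate 2 had wide peaks, the narrowest of 440 bp against 155 to 165 bp in the other 23 libraries. The highest fold of WT day 3 replicate 3 was 159, against 33.2 to 60.6 elsewhere. At day 6 the WT libraries held 98503 to 105511 peaks and the DKO libraries 47448 to 74867. The number of mapped reads is unknown.

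The labelled cell types were checked on marker genes, as kb under peaks. The 8 adipocyte markers summed to 13.2 to 15.95 kb in WT libraries of day 0, with Adipoq and Cidec at 0, and to 65.5 to 76.0 kb at day 9. In DKO libraries their sum was 16.7 to 34.9 kb at day 0 and 98.2 to 103.9 kb at day 9, above every WT library of that day. At day 6 it was 59.4 to 86.8 kb in DKO, below the 91.7 to 96.9 kb of WT. The widest gaps there were in Pparg (means of 25.7 kb in WT and 17.4 kb in DKO) and Lpl (19.5 and 12.6 kb). Adipoq (5.24 and 5.21 kb), Fabp4 (7.44 and 7.37 kb) and Cebpa (3.67 and 3.63 kb) were nearly equal, and Cidec was higher in DKO (6.21 and 7.08 kb). The 6 brown-like markers summed to 1.46 to 2.53 kb in WT at day 0, and by day 9 the sum was 3.34 to 4.84 kb in WT libraries, against 8.01 to 9.12 kb in those of DKO. Among them Elovl3 went from 0 at day 0 to day 9 means of 0.578 kb (WT) and 3.58 kb (DKO), while Ucp1 held 0 peaks in every library. The 7 preadipocyte and stromal markers summed to 32.0 to 38.0 kb in WT libraries of day 0, and to 31.5 to 37.0 kb in those of day 9. The 5 macrophage and blood markers lay between 23.3 and 25.8 kb in the WT libraries of day 0 and between 6.29 and 8.40 kb in those of day 9. Their DKO sums lay between 29.6 and 55.1 kb at day 0, and between 9.21 and 11.8 kb at day 9. At day 6, the stromal markers summed to 10.6 to 15.7 kb in DKO and 32.8 to 33.2 kb in WT libraries. The 5 endothelial markers summed at day 0 to 4.62 to 5.75 kb in WT libraries, against 6.07 to 13.3 kb in those of DKO, with Pecam1 holding peaks in every group and Tie1 at 0 in every library. At day 9 the endothelial sums were 1.49 to 2.64 kb in WT libraries, against 3.12 to 4.03 kb in those of DKO, and the summed mesothelial markers reached at most 0.944 kb. In such bulk samples, fewer cells of a type and less of the mark per cell cannot be told apart.

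Some stretches named below are shown here, each with 100 bases either side of the summit of its strongest peak, from GRCm38 (mm10). The first set holds sites that were called in all libraries of 1 genotype and in none of the other at some day, or that were lost with differentiation, and the second set holds summits with the TCF/LEF motif CTTTGAT or CTTTGTT in capitals, on either strand.
Wnt5a intron (chr14:28509393-28509593, plus strand): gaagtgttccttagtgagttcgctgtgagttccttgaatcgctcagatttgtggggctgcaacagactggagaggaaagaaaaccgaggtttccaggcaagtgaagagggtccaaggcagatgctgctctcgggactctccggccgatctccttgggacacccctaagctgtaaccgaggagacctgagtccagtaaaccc
Wnt10b upstream (chr15:98780322-98780522, minus strand): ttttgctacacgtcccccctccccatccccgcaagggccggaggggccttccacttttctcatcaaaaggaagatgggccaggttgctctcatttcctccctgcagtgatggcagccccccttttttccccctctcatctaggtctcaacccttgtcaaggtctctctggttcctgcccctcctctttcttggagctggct
Sfrp2 upstream (chr3:83764189-83764389, plus strand): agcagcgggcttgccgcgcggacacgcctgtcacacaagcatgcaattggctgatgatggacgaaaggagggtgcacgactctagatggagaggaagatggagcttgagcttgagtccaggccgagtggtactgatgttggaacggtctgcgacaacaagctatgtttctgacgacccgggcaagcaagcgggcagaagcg
Dkk2 intron (chr3:132116363-132116563, plus strand): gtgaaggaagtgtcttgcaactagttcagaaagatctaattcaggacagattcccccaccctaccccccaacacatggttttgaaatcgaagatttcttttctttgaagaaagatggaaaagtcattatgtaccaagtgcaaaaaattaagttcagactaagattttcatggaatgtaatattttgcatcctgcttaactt
Tcf7l1 intron, site A (chr6:72659370-72659570, minus strand): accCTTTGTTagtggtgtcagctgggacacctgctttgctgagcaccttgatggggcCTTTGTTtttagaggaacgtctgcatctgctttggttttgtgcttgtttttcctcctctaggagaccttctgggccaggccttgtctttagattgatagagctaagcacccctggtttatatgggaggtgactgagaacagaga
Tcf7l1 intron, site B (chr6:72711650-72711850, minus strand): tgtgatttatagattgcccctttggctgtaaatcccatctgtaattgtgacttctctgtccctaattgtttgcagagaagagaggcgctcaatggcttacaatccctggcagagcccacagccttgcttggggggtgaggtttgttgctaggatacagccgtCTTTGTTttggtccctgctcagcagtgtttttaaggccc
Over the 169 merged regions of the members, made by joining peaks that overlap by at least 1 bp, 5.33% held a TCF/LEF match at the summit, against 8.17% of all 169358 merged regions. For the AP-1 motif (TGACTCA or TGAGTCA) the shares were 4.14% and 3.45%, and for the C/EBP motif (TTGCNNCAA) 1.78% and 1.70%. No motif contains another, both strands were searched, and a match is a description of letters, not a bound site. Of the RefSeq promoters of the members (GRCm38.p6), the second promoter of Tcf7l2 at chr19:55895071-55895370 held a TCF/LEF match and no other did. Matches were in 9.33% of 32851 promoters, and the members have too few promoters for a comparison with that share.

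The length under peaks in each window, in kb, is plotted for the 9 tested members by library.

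**Figure D1:**
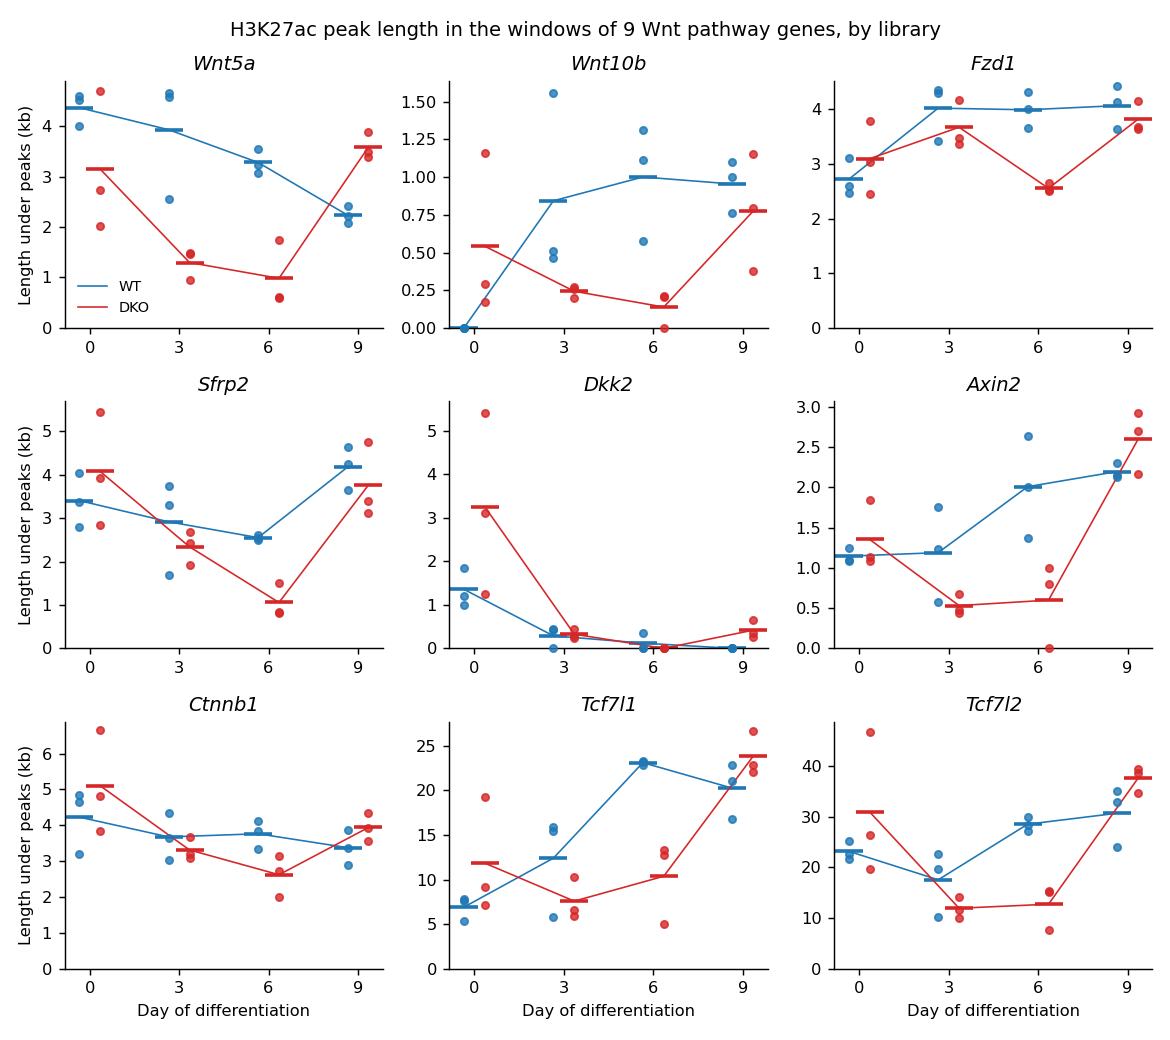
Length under H3K27ac peaks (kb, y axis) from 5 kb upstream to the end of 9 Wnt pathway genes against day of differentiation (x axis); each point is a library, horizontal bars and lines are means of 3, WT in blue and DKO in red. At day 6 the DKO points lie below the WT points in every panel except Dkk2, and at day 9 they lie above WT without overlap for Wnt5a and Dkk2.

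Wnt5a encodes a ligand of the branch that works without beta-catenin. It lies on chromosome 14 (28504750 to 28527448, plus strand) and held peaks in 24 of 24 libraries, over the gene start and over an intron that is also the start of another transcript. WT libraries had 3.99, 4.51 and 4.597 kb at day 0, and DKO libraries 2.02, 4.69 and 2.74 kb. On day 3 the WT values were 4.65, 4.58 and 2.56 kb, and the DKO values 1.47, 1.49 and 0.941 kb. The groups overlapped at day 0 only through the DKO library with wide peaks, and did not overlap at day 3. On day 6 WT libraries had 3.06, 3.24 and 3.54 kb, against 0.606, 1.74 and 0.6 kb in DKO. At day 9 the order turned, with 2.23, 2.07 and 2.41 kb in WT against 3.39, 3.88 and 3.48 kb in DKO. DKO thus lay below WT in every library at days 3 and 6 and above it at day 9.

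The difference between genotypes (DKO minus WT) was −2.63 kb (SE 0.71) on day 3, −2.30 kb (SE 0.405) on day 6 and 1.35 kb (SE 0.181) on day 9, each with exact permutation p 0.1, two-sided, the smallest that 3 against 3 libraries allow. Relative to the WT mean these differences are −67.0%, −70.0% and 60.3%. The genotypes were not apart at these 3 days with 20000 peaks per library. At day 0 every DKO library then lay below every WT library, with means of 0 and 0.981 kb, as for 0.248% of genes. That share includes the DKO library with wide peaks. With all peaks but without that library, DKO also lay below at day 0 for Wnt5a, as for 9.39% of genes. How far the low share rests on that library was not tested. Over the 4 days the mean difference was −1.20 kb (two-sided exact permutation p 0.0177 with relabelling inside each day, 0.370 after Benjamini-Hochberg adjustment over all genes tested). The limma fit on log2(kb + 0.5) called it, with a difference of −0.65 and an adjusted p of 0.00427. Whether the difference changed with day had an adjusted p of 0.0702 by the exact permutation test and 0.00286 by limma. The WT course fell by 2.13 kb from day 0 to day 9, while the DKO course rose by 0.433 kb. The mean of both was −0.849 kb (adjusted exact permutation p 0.333).

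A site whose calls differed at day 6 was the Wnt5a intron printed above (28508651 to 28511188, summit 4.74 kb from the start). Its share of the difference in length was not computed. All 12 WT libraries held a peak there, and so did 8 of the 12 from DKO, but none of the 3 DKO libraries of day 6. At day 6 its fold enrichment over local background, as the peak caller gave it, was 6.23, 6.80 and 6.52 in WT. At the gene start every library had a peak. The highest fold there was 7.03, 11 and 11.9 in WT and 7.27, 6.06 and 5.53 in DKO at day 6, which overlap, and 5.93, 7.65 and 9.05 in WT against 12.04, 11.8 and 11.2 in DKO at day 9, which do not. A further site at the start of another transcript (28511363 to 28511738) had a peak in all 3 WT libraries of day 3, in 1 WT library of day 6 and in no DKO library. The antisense gene Gm2670 lies across the intron site, and the mark has no strand.

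Wnt10b encodes the canonical ligand that holds preadipocytes back. It lies on chromosome 15 (98770712 to 98778150, minus strand), and the site called in most libraries, 20 of 24, lay upstream, 2.27 kb before the start (98779967 to 98781434), as printed above. Its promoter as RefSeq gives it (chr15:98778101-98778400) met a peak in 0 of 24 libraries. WT libraries had 0, 0 and 0 kb at day 0, and DKO libraries 0.292, 1.16 and 0.170 kb. The site was thus present in preadipocytes of DKO mice and not called in those of WT mice, also without the library with wide peaks, where the difference was 0.231 kb. The DKO peaks there were low, with folds of 3.78, 3.75 and 6.82. The genotypes were no longer apart at a −log10 q of at least 5, and with 20000 peaks per library the site was at 0 in both. By day 3 the lengths were 1.56, 0.508 and 0.462 kb in WT, against 0.201, 0.272 and 0.256 kb in DKO. By day 6 they were 1.31, 0.576 and 1.12 kb in WT, against 0.211, 0.204 and 0 kb in DKO. DKO libraries lay below every WT library at both days. By day 9 the groups overlapped, with 0.764, 1.10 and 1.001 kb in WT, against 0.794, 1.15 and 0.376 kb in DKO.

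The difference was 0.542 kb (SE 0.313) on day 0, −0.6 kb (SE 0.359) on day 3, −0.862 kb (SE 0.23) on day 6 and −0.180 kb (SE 0.246) on day 9 (exact permutation p 0.1, 0.1, 0.1 and 0.7, two-sided). At none of these days were the genotypes apart with 20000 peaks per library. Over the days its mean was −0.275 kb (exact permutation p 0.145, adjusted 0.685). Whether it changed with day had an adjusted exact permutation p of 0.0620, which passed at 0.0427 without WT day 3 replicate 3, and 0.00708 by limma. The height of the site kept the genotypes apart longer than its width. Its fold was 14.9, 10.5 and 10.6 in WT and 5.36, 9.17 and 6.36 in DKO at day 3. It was 7.87, 8.40 and 11.05 in WT and 5.55, 6.26 and no peak in DKO at day 6. It was 8.68, 8.50 and 11.8 in WT and 5.86, 5.85 and 5.30 in DKO at day 9. The WT values lay above the DKO values in every library at these 3 days, and below them at day 0. From day 0 to day 9 the length rose in WT by 0.954 kb and in DKO by 0.233 kb. The joint rise of 0.594 kb had an adjusted exact permutation p of 0.113, which was 0.0258 without DKO day 0 replicate 2 and 0.00123 by limma. The change was 0.0508 kb with 20000 peaks per library (adjusted exact permutation p 1) and −0.0055 kb over the gene span alone, which leaves the upstream site out.

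**Figure D2:**
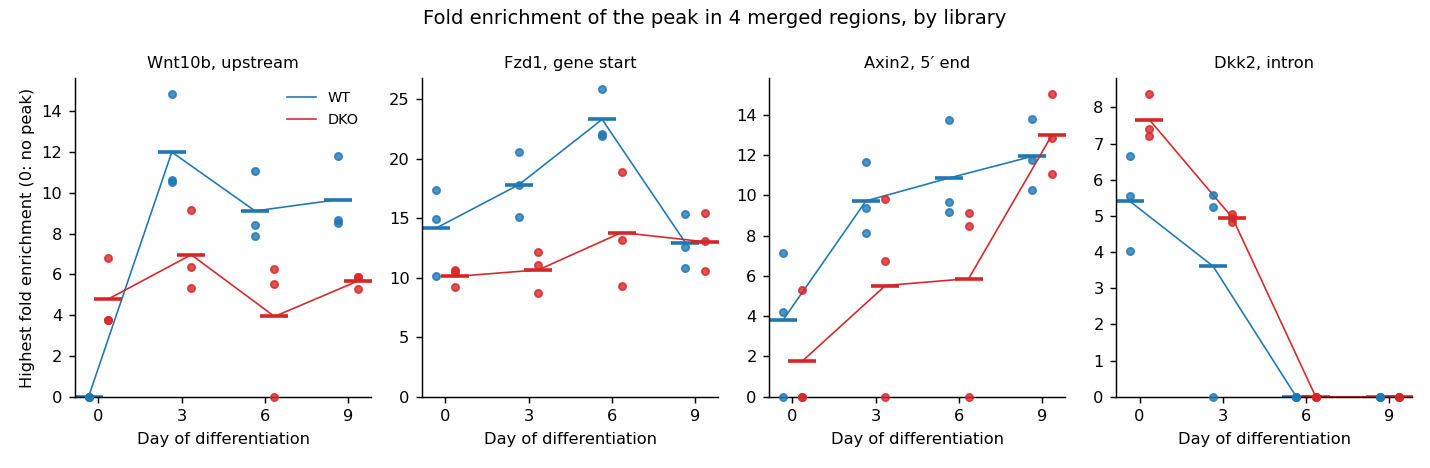
Highest fold enrichment of the peak in 4 merged regions (y axis, 0 where no peak was called) against day (x axis); points are libraries, bars and lines means of 3, WT in blue and DKO in red. The upstream site of Wnt10b is at 0 in WT at day 0 and higher in WT than in DKO at the 3 later days, the Fzd1 start is highest in WT at day 6, the Axin2 site climbs in both genotypes, and the Dkk2 intron is at 0 from day 6 on.

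Fzd1, on chromosome 5 (4753839 to 4758035, minus strand), encodes a Frizzled receptor. Peaks covered 38.0% of its window on average, the largest share among the members. The site over its start (4754504 to 4759409) was called in 24 of 24 libraries. The length rose from day 0 to day 9 by 1.03 kb (exact permutation test, adjusted p 0.0481). WT libraries went from 2.46, 3.10 and 2.59 kb to 3.64, 4.42 and 4.14 kb. DKO libraries went from 2.46, 3.79 and 3.04 kb to 3.63, 4.14 and 3.67 kb. Day 9 lay above day 0 without overlap in WT, and the days overlapped in DKO. The call was lost with 20000 peaks per library (1.08 kb, adjusted p 0.305), and with windows of 250 bp either side of each summit the value was −0.713 kb.

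At day 6 Fzd1 had 4.00, 3.66 and 4.31 kb in WT and 2.64, 2.52 and 2.50 kb in DKO, a difference of −1.44 kb (SE 0.194, exact permutation p 0.1). Its highest fold at day 6 was 21.9, 25.9 and 22.1 in WT and 18.8, 13.2 and 9.34 in DKO. The 3 DKO values lay below every WT value, as they did at day 3 with 20.6, 17.7 and 15.1 in WT and 8.74, 11.1 and 12.2 in DKO. At day 9 the values overlapped. The rank of its best peak, the percentage of a library's peaks with a lower −log10 q, differed by −5.95 percentage points (DKO minus WT) over the 4 days (exact permutation p 0.0053, adjusted 0.0786). For length the mean over days was −0.415 kb (exact permutation p 0.0692, adjusted 0.553).

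Sfrp2, on chromosome 3 (83766321 to 83774316, plus strand), encodes a secreted protein that binds Wnt ligands. It had a site over its start in 24 of 24 libraries and an upstream site (83763120 to 83765088), printed above, in 11 WT and 8 DKO libraries. Its day 6 lengths were 2.49, 2.55 and 2.61 kb in WT, against 0.821, 1.5 and 0.849 kb in DKO. The difference was −1.49 kb (SE 0.224, exact permutation p 0.1), the groups did not overlap, and the upstream site was present in all 3 WT libraries and absent from all 3 DKO libraries. At the other days the groups overlapped. By day 9 the values were 4.63, 4.24 and 3.66 kb in WT, against 4.76, 3.13 and 3.39 kb in DKO, and the upstream site was present in every library of both genotypes. The change from day 0 to day 9 was 0.227 kb (adjusted exact permutation p 0.817), and its sign rested on replicate 1, without which it was −0.454 kb.

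Dkk2, on chromosome 3 (132085292 to 132180304, plus strand), encodes a secreted inhibitor that binds the Wnt co-receptors, and 15 of 24 libraries had a peak in its window. It fell with differentiation. At day 0 WT libraries had 1.85, 1.21 and 1.00 kb and DKO libraries 1.25, 5.40 and 3.11 kb, the highest in the library with wide peaks. On day 3 the values were 0.451, 0.411 and 0 kb in WT, against 0.244, 0.285 and 0.446 kb in DKO. At day 6 a single library held peaks, WT replicate 3 with 0.360 kb. At day 9 every WT library was at 0 and DKO libraries had 0.653, 0.344 and 0.257 kb. No peak was thus left in WT at day 9, while every DKO library held some, with no overlap between the genotypes.

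From day 0 to day 9 the length fell by 2.09 kb (exact permutation test, adjusted p 0.0203), and without DKO day 0 replicate 2 it fell by 1.56 kb (adjusted p 0.0155). With 20000 peaks per library WT was at 0 kb on every day. DKO then had a mean of 0.671 kb at day 0 and 0 kb on later days. At that setting no fall could be seen in WT, and the genotypes were not apart at day 9. The strongest site was the intron printed above (132115099 to 132117166, summit 31.2 kb from the start). Its fold in WT was 5.54, 4.03 and 6.65 at day 0, and in DKO 7.39, 8.38 and 7.22. It was called in 6 of 6 libraries at day 0, 5 of 6 at day 3 and in none of the 12 libraries of days 6 and 9. The DKO peaks of day 9 lay at other sites. The 1 that all 3 DKO libraries held, and no WT library of that day, lay 2.01 kb from the start (132087106 to 132088087) with folds of 4.47, 6.38 and 6.24, and it had also been called in 4 of 6 libraries at day 0. The summed macrophage and blood markers and the summed endothelial markers were also lower at day 9 than at day 0, by the values given above. Among the former, Cd68 stayed nearly level in WT, with means of 3.36 kb at day 0 and 3.34 kb at day 9. The part of these markers in the fall of Dkk2 was not tested.

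**Figure D3:**
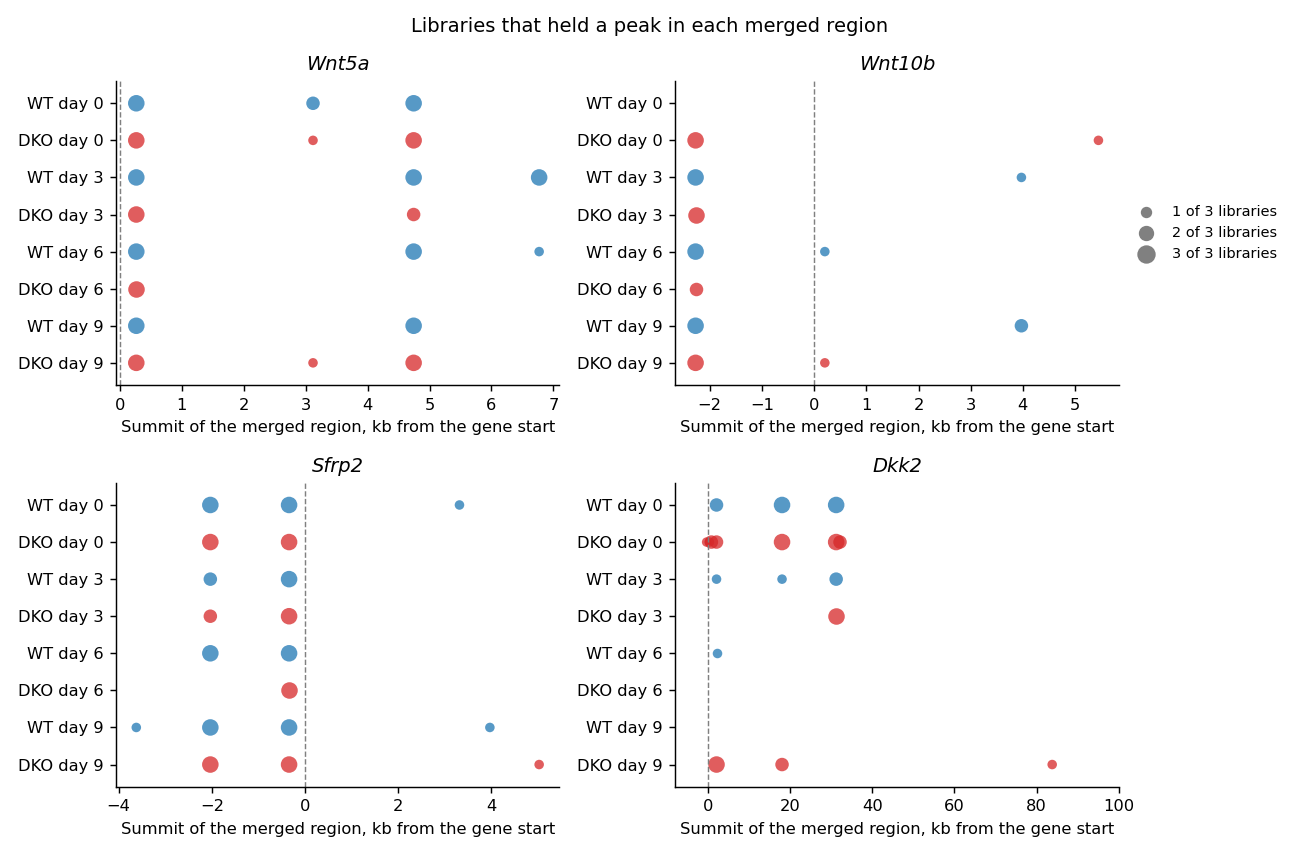
Merged regions of 4 genes by the distance of their summit from the gene start (kb, x axis) and by group (y axis); the size of a point gives how many of the 3 libraries held a peak, WT in blue and DKO in red, and the dashed line is the gene start. In DKO at day 6 the Wnt5a site at 4.74 kb and the Sfrp2 site at −2.03 kb have no point, Wnt10b has no point in WT at day 0, and Dkk2 loses its site at 31.2 kb after day 3.

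Axin2, on chromosome 11 (108920349 to 108950783, plus strand), encodes a scaffold of the complex that destroys beta-catenin and is a classic target of the canonical pathway. In all, 23 of 24 libraries had a peak. Its length rose with differentiation in both genotypes. WT libraries went from 1.09, 1.25 and 1.10 kb at day 0 to 2.30, 2.13 and 2.15 kb at day 9. DKO libraries went from 1.13, 1.84 and 1.09 kb to 2.16, 2.92 and 2.70 kb. Day 9 lay above day 0 without overlap in both genotypes. The rise was 1.05 kb in WT and 1.24 kb in DKO, and 1.15 kb jointly (exact permutation test, adjusted p 0.0203). With 20000 peaks per library it was 0.353 kb (adjusted p 0.267).

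Over the same days a site at the 5′ end of the gene (108920413 to 108921139) was called in more libraries. It was called in 3 of 6 libraries at day 0 and in 6 of 6 at day 9. Its fold at day 9 was 11.7, 13.8 and 10.3 in WT and 15.04, 12.9 and 11.04 in DKO, against at most 7.14 in any library of day 0. On day 6 the length was 1.38, 2.01 and 2.64 kb in WT, against 0.795, 1.001 and 0 kb in DKO. The 3 DKO libraries lay below every WT library, with a difference of −1.41 kb (SE 0.476, exact permutation p 0.1). Over the 4 days the rank of the best peak was lower in DKO by −17.4 percentage points (exact permutation p 0.0178, adjusted 0.141), and the length by −0.365 kb (adjusted 0.659).

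Ctnnb1, on chromosome 9 (120929216 to 120960507, plus strand), encodes beta-catenin, and its window also holds the end of Ulk4 on the other strand. Across groups the mean length stayed between 2.62 and 5.11 kb. Over the 4 days the genotypes differed by −0.0168 kb (exact permutation p 0.961), and from day 0 to day 9 the length changed by −1.01 kb (exact permutation p 0.065, adjusted 0.150). On day 6 its length was 3.33, 4.12 and 3.84 kb in WT, against 2.74, 3.14 and 1.99 kb in DKO, without overlap. A site (120932741 to 120933221) had a peak in all 3 WT libraries of that day and in no DKO library. It is intronic from the annotated gene start but overlaps a RefSeq promoter of Ctnnb1 (120933150 to 120933449). The strongest site of the gene, next to it at the start of another transcript (120933620 to 120937048), was called in 24 of 24 libraries. At day 0 the highest fold was 16.4, 15.8 and 15.9 in WT and 11.4, 9.19 and 11.04 in DKO, again without overlap.

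Tcf7l1 and Tcf7l2 encode DNA-binding partners of beta-catenin. They have the longest windows of the members and held 57 and 66 of the 169 merged regions. Tcf7l1 lies on chromosome 6 (72626378 to 72789254, minus strand) and rose with differentiation. WT libraries went from 5.36, 7.56 and 7.80 kb at day 0 to 15.9, 15.4 and 5.85 kb on day 3, and DKO libraries from 7.12, 19.2 and 9.15 kb to 5.87, 10.3 and 6.55 kb. On day 6 the lengths were 23.2, 22.9 and 23.2 kb in WT, against 12.8, 13.3 and 5.05 kb in DKO. By day 9 they were 16.8, 22.8 and 21.0 kb in WT, against 26.6, 22.1 and 22.8 kb in DKO. In WT the values of day 6 were thus above those of day 9, while every DKO library of day 6 lay below every DKO library of day 9. From day 0 to day 9 the length rose by 12.7 kb (exact permutation test, adjusted p 0.0203), by 13.3 kb in WT and 11.98 kb in DKO. With 20000 peaks per library the rise was 2.89 kb (adjusted p 0.261).

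At day 6 the Tcf7l1 difference between genotypes was −12.7 kb (SE 2.66, exact permutation p 0.1), without overlap, also with 20000 peaks per library (−3.50 kb). At its start the highest fold at day 9 was 9.41, 17.3 and 9.29 in WT and 23.3, 22.6 and 21.3 in DKO, without overlap, and at day 6 the values overlapped. Intronic site A, with 2 TCF/LEF matches, was called in 24 of 24 libraries. Site B (72710980 to 72712425), with 1 match, was found in all 3 WT and no DKO libraries of day 6 and in every library of day 9. A site 48.3 kb from the start (72740049 to 72741661) was found in all 3 WT and no DKO libraries of day 3. At day 0 the same site was found in 2 DKO libraries and in no WT library, and at day 9 in every library.

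Tcf7l2 lies on chromosome 19 (55741820 to 55933654, plus strand) and has the longest window of the members, of which peaks covered 12.3% or 24.2 kb on average. Its start (55740451 to 55751676) held a peak in every library, with a median rank of 98.7%. On day 6 the WT lengths were 28.4, 27.3 and 29.98 kb, and the DKO lengths 15.4, 15.1 and 7.75 kb. The difference of −15.8 kb (SE 2.62) had exact permutation p 0.1, and the groups stayed apart with 20000 peaks per library (−2.08 kb). By day 9 they were 24.1, 35.1 and 32.9 kb in WT, against 39.5, 38.6 and 34.7 kb in DKO, which overlap. The fold at the start went the other way at day 9, with 39.0, 39.6 and 32.2 in WT and 26.3, 29.04 and 30.99 in DKO, without overlap. The change from day 0 to day 9 was 7.07 kb (exact permutation p 0.12, adjusted 0.239), and 11.02 kb without DKO day 0 replicate 2 (adjusted p 0.0258). At the second start of the gene (55894917 to 55897354) all 3 WT and no DKO libraries had a peak at day 6, and every library had one at day 9.

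Taken as a list, the members were read against all genes. From day 0 to day 9, 3 of the 9 rose (Tcf7l1, Axin2 and Fzd1), against 16.4% of all genes tested, and Dkk2 fell, against 14.8%. The median change was 0.594 kb over the members and 0.0386 kb over all genes. For genotype over the 4 days, 0 members were called by the exact permutation test with Benjamini-Hochberg adjustment, against 0.0263% of genes higher and 0.125% lower in DKO. At an unadjusted exact permutation p under 0.05 there was 1 member, Wnt5a, beside 898 of 15204 genes lower in DKO, and limma also called 1, the same gene, beside 815 lower. The median difference was −0.415 kb over the members and −0.00708 kb over all genes. For the rank of the best peak 0 members were called, against 0.158% of genes higher and 3.28% lower, and 3 (Wnt5a, Axin2 and Fzd1) had an unadjusted p under 0.05 by the exact permutation test, beside 2989 genes lower in DKO. The change of the genotype difference with day was called for 0 members, against 17.1% of genes, with 5 at an unadjusted p under 0.05 by the exact permutation test, beside 6983 of all 15204 genes. Limma called 7 members there, all tested but Ctnnb1 and Dkk2, beside 5576 genes.

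Day by day, the members whose genotypes did not overlap were counted beside all genes. At day 0 DKO lay above WT for Wnt10b alone, against 18.4% of genes. At day 3 it lay below for Wnt5a and Wnt10b, against 10.8%. Without WT day 3 replicate 3, the library whose highest fold stands apart, 7 members lay below at day 3, against 51.6% of genes. At day 6 it lay below for 8 of 9 members, all but Dkk2, against 59.6% of genes. With 20000 peaks per library, 3 members (Tcf7l1, Tcf7l2 and Fzd1) lay below at day 6, against 36.2%. Tcf7l2 then lay below at day 3 (10.7% of genes) and Ctnnb1 above at day 9 (19.5%), in place of the members named for those days. At day 0 DKO then lay below for Wnt5a, against 0.248% of genes, and no longer above for Wnt10b. With all peaks but without DKO day 0 replicate 2, the library with wide peaks, DKO also lay below for Wnt5a, against 9.39%. At day 9 DKO lay above WT for Wnt5a and Dkk2, against 29.3%. The median difference of the members at day 6 was −1.44 kb and that of all genes −0.532 kb. Most genes therefore shared the direction of the members at day 6, with a lower DKO mean in 91.4% of all genes tested. The number of peaks per library and the summed stromal and adipocyte markers were also lower in DKO at day 6, though not every adipocyte marker was. The summed adipocyte markers were higher in DKO at day 9, all by the values given above. The part of peak numbers and markers in these differences was not tested.

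**Figure D4:**
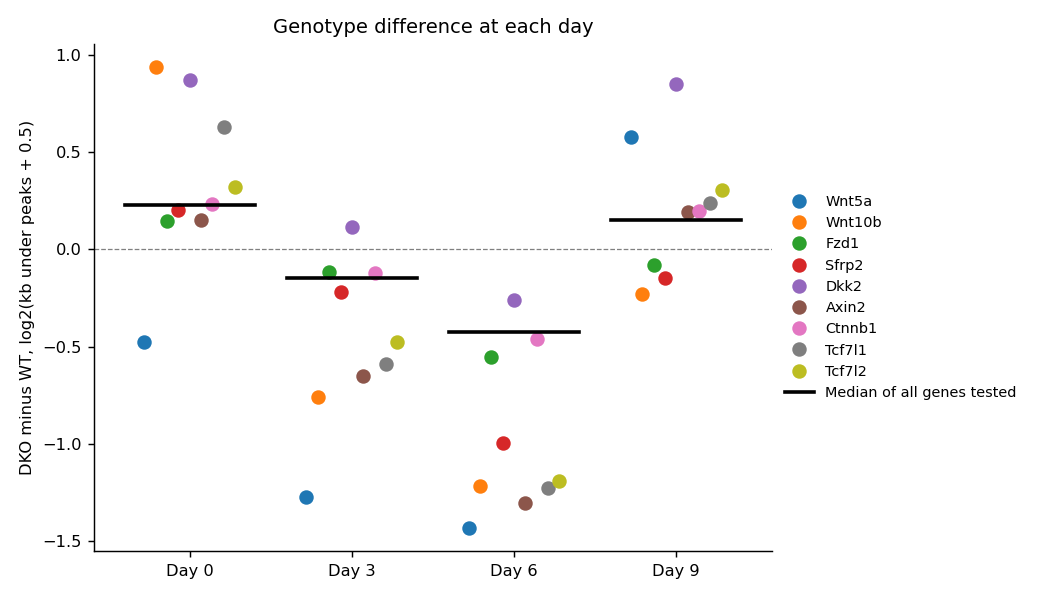
DKO minus WT difference on the log2(kb under peaks + 0.5) scale (y axis) at each day for 9 Wnt pathway genes (coloured points), with the median of all genes tested as a black bar. At day 6 the points of 8 members lie below the bar of all genes at −0.42, and Dkk2 at −0.26 lies above it.

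Peak height gave other counts than peak length. For the highest fold, DKO lay below WT without overlap at day 0 for Wnt5a, Ctnnb1 and Axin2 (8.31% of genes) and above it for Wnt10b and Dkk2 (11.3%). At day 3 it lay below for Wnt10b, Tcf7l1, Sfrp2 and Fzd1 (23.9%), and at day 6 for Wnt10b, Tcf7l2, Axin2 and Fzd1 (45.2%). At day 9 it lay below for Wnt10b and Tcf7l2 (7.2%) and above for Wnt5a, Tcf7l1 and Dkk2 (21%). For the rank of the best peak at day 6, DKO lay below for 2 members, Wnt10b and Fzd1, against 35.9% of genes.

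Single sites were counted in the same way. Of the 169 merged regions of the members, 3 were called in every DKO and no WT library at day 0, which is 1.78% against 0.745% of all regions. At day 3, 2 were called in every WT and no DKO library (1.18% against 0.9%), and at day 6 there were 7 (4.14% against 4.55%). At day 9, 1 was of WT alone (0.592% against 0.386%) and 2 were of DKO alone (1.18% against 1.46%). With 20000 peaks per library these numbers fell to 0 at days 3, 6 and 9. At day 0 there were then 0 of DKO alone and 1 of WT alone, 4.0% of 25 member regions against 0.237% of all regions.

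The wider pathway was read from a list of 91 genes, of which 70 were tested and 13 held no peak in any library. For genotype over the 4 days 0 were higher and 1 was lower in DKO, Rspo3, an R-spondin that enhances Wnt signals, by −1.27 kb (exact permutation p 7.5e-05, adjusted 0.0496). From day 0 to day 9, 12 of the 70 rose and 6 fell, beside the 16.4% and 14.8% of all genes given above, and the counts by role below rest on few genes. Of the 13 receptors tested 4 rose, among them Ror1 (44.5 kb), a receptor of Wnt5a, and Lrp6 (7.48 kb), a co-receptor of the canonical branch (exact permutation test, adjusted p 0.0203 and 0.0481). Of the 10 ligands 2 rose, Wnt4 and Wnt5b (0.6998 and 4.82 kb, both adjusted p 0.0203 by the exact permutation test). The group of secreted inhibitors, with 11 genes tested, also held Kremen1 and Kremen2, which are membrane receptors of Dkk proteins and not secreted. In it Kremen1 rose, and 2 fell, Dkk2 and Sfrp1, the latter by 15.6 kb (adjusted exact permutation p 0.0203). Also higher at day 9 were the receptor Fzd4 (1.52 kb), the R-spondin receptor Lgr4 (9.71 kb), Btrc (1.60 kb), which marks beta-catenin for destruction, and the co-repressor Tle1 (4.89 kb). Axin1 and Gsk3b, parts of the destruction complex, fell by 2.29 and 2.41 kb, and the co-repressor Tle4 fell by 1.05 kb. The adjusted exact permutation p was 0.0352 for Fzd4 and Gsk3b and 0.0203 for the other 5. The target Ccnd1, a driver of the cell cycle, fell by 4.37 kb (adjusted exact permutation p 0.0203). At day 6, 49 of the 70 lay below WT in every DKO library, beside the 59.6% of all genes given above.

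Each member's length over the 24 libraries was set beside those of tested genes on other chromosomes that passed a minimum mean length. The comparison is a description, since the points share libraries and their peak numbers. The most alike genes were Mif for Wnt5a (Pearson's r 0.871), Xpo4 for Wnt10b (0.848), Mad2l2 for Fzd1 (0.930), Ap3m2 for Sfrp2 (0.928) and Snx29 for Dkk2 (0.979). They were Carhsp1 for Axin2 (0.937), Plekha2 for Ctnnb1 (0.942), Ebf1 for Tcf7l1 (0.986) and Rbpms for Tcf7l2 (0.988).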

How the data were processed

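H3K27ac ChIP-seq reads of 75 bp were processed by the authors (bcl2fastq 2.17, cutadapt 1.18, BWA 07.17, MACS2 2.1.1.20160309, per the labels) against mm10. Peaks were called per library. MACS2 options and the input behind each list are not given in the sources used here. As deposited by the authors, each of the 24 peak lists holds a fold enrichment over local background, a −log10 q value and an integer score. The 16 input libraries were not analysed here.

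For each GENCODE M21 gene with 5 kb upstream, the kb under peaks, the highest fold and the best rank of −log10 q were taken. Genes with a peak in at least 3 libraries were tested by exact two-sided permutation tests with Benjamini-Hochberg adjustment at 0.05: genotype within days (160000 relabellings, smallest p 1.25e-05), day 9 against day 0 within genotypes (400 relabellings, smallest p 0.005), and the change of the genotype difference with day. limma 3.58.1 on log2(kb + 0.5) was an alternative, beside a −log10 q of at least 5, 20000 peaks per library, summits with 250 bp either side, the gene span alone, and left-out libraries. Scripts were tested on simulated data. Python 3.11.15, numpy 2.4.6, pandas 2.3.3, numba 0.67.0, pysam 0.24.0 and R 4.3.3 were used. All members are named, together with wider pathway genes that passed a test. The members and lists were chosen with earlier results of these data known.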

Additional observations from a re-analysis of the deposited data

Results flagged for a closer look

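For Wnt5a the genotypes differed in opposite directions between days. DKO minus WT was −2.63 kb on day 3 and −2.30 kb on day 6, with every DKO library below every WT library, and 1.35 kb on day 9, with every DKO library above. For Wnt10b it was 0.542 kb on day 0, with every DKO library above, and −0.6 kb on day 3 and −0.862 kb on day 6, with every DKO library below. With 20000 peaks per library none of these 6 separations was kept. Lengths were then short, with both genotypes at 0 kb for Wnt10b on day 0. DKO means were 0 kb for Wnt5a on days 3 and 6 (WT 0.807 and 0.564 kb) and for Wnt10b on day 6 (WT 0.247 kb). The other means were 0.622 kb (WT) and 0.0907 kb (DKO) for Wnt10b on day 3, and 0.297 and 1.26 kb for Wnt5a on day 9. The test of the change with day gave adjusted exact permutation p of 0.0702 for Wnt5a and 0.0620 for Wnt10b. The groups of 3 libraries are too small for a search for single libraries that stand apart by value.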

How the results depend on the processing

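Depth per library is unknown and peak numbers ranged from 47448 to 115923, so the absence of a peak says only that none was called. Genes called for genotype over the days (23) became 10 at a −log10 q of at least 5, 13 with 20000 peaks, 157 with summit windows, 37 with the gene span alone, 998 by limma (with 1 member), 207 without DKO day 0 replicate 2, 39 without WT day 3 replicate 3 and 46 without DKO day 6 replicate 3, the last added after seeing the data. Genes called between days 9 and 0 (4741) became 1292 with 20000 peaks, where 0 members were called, and 2269 with summit windows. Genes called for a change with day (2605) became 0 with 20000 peaks, 0 with summit windows, 1719 with the gene span, 5576 by limma, 1609, 4862 and 803 without those libraries in the same order. Members called there (0) became 2 at the stricter q, 3 without WT day 3 replicate 3 and 7 by limma. Genes called on rank (523) became 313 at the stricter q and 131 with 20000 peaks. Over all left-out libraries the counts of genes ranged from 0 to 207 for genotype, 0 to 6903 between days 9 and 0, 0 to 4862 for the change with day and 0 to 647 for rank. Each 0 came without a whole replicate number. Between days 9 and 0 the relabellings then left are too few to pass the threshold, which says nothing on stability. For the other tests fewer relabellings are left. They do not bar a call outright, but many genes would have to share the smallest p for any to pass. A 0 there therefore says little on stability either.

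Members that did not overlap at day 0 (1, Wnt10b, with DKO above) were 2 with summit windows and 2 without DKO day 0 replicate 2, where Wnt5a was added with DKO below. They were 0 with the gene span and 0 called by limma. At the stricter q and with 20000 peaks Wnt5a, with DKO below, took the place of Wnt10b. Over all genes DKO lay below in 7.21% with summit windows, 9.39% without that library, 0.565% at the stricter q and 0.248% with 20000 peaks. It lay above in 1.5% with summit windows, 18.7% without that library and 17.7% with the gene span. At day 3 (2) the members were 1 with 20000 peaks (Tcf7l2), 1 with the gene span, 7 without WT day 3 replicate 3 and 1 by limma. Over all genes DKO lay below in 10.7%, 11.3% and 51.6% under the first 3 of these, and limma called 44 genes lower. At day 6 (8) the members were 3 with 20000 peaks, against 36.2% of genes below. With summit windows Fzd1 alone of the 8 was no longer apart, against 23.5% of genes below. Limma called 7 members lower at day 6, beside 6065 of 15204 genes. At day 9 (2) they were 1 with 20000 peaks (Ctnnb1, against 19.5% of genes above) and 0 by limma, beside 260 genes higher. Leaving out a replicate gave 1 to 4 at day 0, 2 to 8 at day 3, 8 to 8 at day 6 and 4 to 5 at day 9, in either direction. Over all genes DKO then lay above in 29% to 47.6% at day 0, below in 13.3% to 55% at day 3 and 63.8% to 76.6% at day 6, and above in 34.2% to 51.5% at day 9. The opposite direction held for 1.35% to 11.9% at day 0, 1.77% to 5.81% at day 3, 0.195% to 3.87% at day 6 and 3.92% to 14.6% at day 9. Regions of 1 genotype alone (3, 2, 7 and 3 by day) were 1 and 1 at days 0 and 3 with the stricter q, and 1, 0, 0 and 0 with 20000 peaks. The 1 at day 0 with 20000 peaks was of WT alone, while the 3 of the main setting were of DKO alone.

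Signs turned mostly for differences that no test called, and the cause was not tested. For genotype they became 0.00625 kb (Wnt10b) and 0.0507 kb (Ctnnb1) with the gene span, 0.0171 kb (Ctnnb1), 0.821 kb (Tcf7l2) and 0.147 kb (Sfrp2) with 20000 peaks, and 0.178 kb (Fzd1) with summit windows. Ctnnb1 was 0.0625 kb without DKO day 6 replicate 3, and ranged from −0.210 to 0.170 kb over left-out libraries. From day 0 to 9 they became 0.289 kb (Wnt5a) and −0.106 kb (Sfrp2) with 20000 peaks, −0.0055 kb (Wnt10b, called by limma and without DKO day 0 replicate 2) with the gene span and −0.454 kb (Sfrp2) without replicate 1, in a range up to 0.874 kb over left-out libraries. The Fzd1 rise, which was called, became −0.713 kb with summit windows. For rank, Tcf7l1 became −0.0692 without DKO day 0 replicate 2 and −0.621 without replicate 1, in a range up to 0.523 percentage points, and Sfrp2 0.955 with 20000 peaks.

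Replicate numbers do not pair the libraries: same-numbered WT and DKO deviations correlated at −0.837 to 0.898, with 4 of 12 pairs over 0.1. With a replicate block 0 genes were called for genotype, and 0 genes and 0 members between days 9 and 0. In the latter test the 64 sign flips allowed make a call hard to reach.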
